A study of Mus musculus with 44 samples.

Results

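CD26-positive cancer-associated fibroblasts (CAFs) from WB1P-Myc mammary tumors were compared with those from WB1P mammary tumors. The libraries were chosen by their labels alone and are those of cells sorted as CD26+ (CD26-positive and not of the En1 lineage) or as +/+ (CD26-positive and of the En1 lineage, here called double+) from tumor-bearing mice. These are 15 of the 44 libraries of the series. Counts were summed per mouse, since the CD26+ and double+ cells of a mouse came from the same tumor, which gave 4 WB1P mice (7 libraries) and 5 WB1P-Myc mice (8 libraries) out of 13 mice in all. Mice 93, 14 and 35 (WB1P) and 21, 23 and 69 (WB1P-Myc) contributed both sorts, and mice 12 (WB1P), 67 and 95 (WB1P-Myc) contributed the double+ sort alone. Libraries of control glands entered no comparison and were used only in an alternative fit of all groups, where they add to the estimate of the spread.

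All hosts were female En1-Cre;mTmG mice that received pre-neoplastic mammary tissue from donor mice. WB1P donors were WapCre;Brca1F/F;Trp53F/F, and WB1P-Myc donors carried Col1a1invCAG-Myc-IRES-Luc in addition. Wap-Cre acts in mammary epithelium, so that the deletions and the Myc transgene lie in the donor epithelium and the fibroblasts of the host carry none of them. The host's own gland was left in place, donors were of the FVB/n strain, and the En1-Cre stock had been crossed with mTmG mice of that strain for few generations. Hosts received the tissue as juveniles. In the hosts, Cre switches cells of the En1 lineage from tdTomato to GFP. Fibroblasts were gated as EpCAM−/CD49f−/CD31−/CD45− cells. The labels mark WB1P-Myc mice 23 and 69 with 8x8, which in the methods of the study is the size in millimetres of an advanced tumor, and give no size for the other tumors. The study describes the WB1P and WB1P-Myc tumors of its sorted fibroblasts as end-stage, a larger size than advanced, and does not set the marked mice apart. Age at sampling is not given in the sources used here.

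Fibroblasts make and remodel the extracellular matrix, and in tumors they also secrete cytokines and growth factors. CD26 (dipeptidyl peptidase 4, encoded by Dpp4) is a surface peptidase that marks fibroblasts of the adventitia and of interstitial layers in many tissues, and CAFs are often divided into inflammatory cells (iCAFs), which secrete cytokines, and myofibroblastic cells (myCAFs), which deposit collagen and contract. MYC is a transcription factor that drives growth and biosynthesis. In the WB1P-Myc model it is overexpressed in the tumor cells, and the comparison asks whether the CD26-positive CAFs around such tumors differ from those around WB1P tumors.

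Dpp4 (ENSMUSG00000035000, chromosome 2, 62330073 to 62412231, genome build GRCm38) encodes the antigen of the sort. It stood at 472, 221, 379 and 502 CPM (read counts scaled by the effective library size) in WB1P mice 93, 12, 14 and 35 and 573, 278, 383, 410 and 273 CPM in WB1P-Myc mice 21, 67, 95, 23 and 69. All 9 mice thus expressed Dpp4, and the models overlapped (log2 fold change -0.04, SE 0.28, WB1P-Myc minus WB1P as for all fold changes here). No level of CD26-negative cells is set beside these values, so that they do not test the purity of the sort. Myc itself, from the host's own gene and any transgene reads that match it, had 638 ± 155 CPM (SD, n = 4 mice) in WB1P and 480 ± 153 CPM (n = 5) in WB1P-Myc CAFs (log2 fold change -0.41, SE 0.26). The log2 fold change was -0.06 for Trp53, 0.56 for Brca1, 0.22 for Pdgfra, 0.30 for Pdgfrb, -0.16 for Acta2 and 0.17 for Cxcl12, each with mice that overlapped between models. En1 had 62.8 CPM in WB1P mouse 93 and 10.4 to 43.5 CPM in the other 8 mice (log2 fold change -0.64, SE 0.44).

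The sorted cells were fibroblasts by their markers. The 12 fibroblast markers, among them the collagen genes Col1a1 and Col3a1, summed to 80803 to 93058 CPM in WB1P and 59447 to 99411 CPM in WB1P-Myc mice, and all other marker sums stayed at or below 424 CPM. The 18 markers of epithelial or tumor cells summed to 28.9, 98.4, 206 and 170 CPM in WB1P mice 93, 12, 14 and 35 and to 11.6, 42.0, 98.5, 48.0 and 8.65 CPM in WB1P-Myc mice 21, 67, 95, 23 and 69, with the higher median (134 against 42.0 CPM) in WB1P. Epcam, the surface antigen removed by the gate, had 3.17, 15.7, 31.3 and 23.3 CPM in the WB1P and 0.131, 4.23, 9.08, 3.36 and 0.0848 CPM in the WB1P-Myc mice. Immune markers summed to 83.2 to 160 against 25.8 to 249 CPM, endothelial markers to 85.9 to 174 against 115 to 192 CPM, pericyte markers to 225 to 424 against 196 to 338 CPM, and skeletal muscle markers to 9.20 to 20.7 against 9.41 to 13.4 CPM. Schwann cell markers summed to 10.2 to 27.7 against 10.6 to 26.0 CPM, adipocyte markers to at most 2.38 CPM and erythroid markers to at most 3.76 CPM. These are bulk samples, in which fewer cells of a type and less RNA per cell cannot be told apart.

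**Figure D1:**
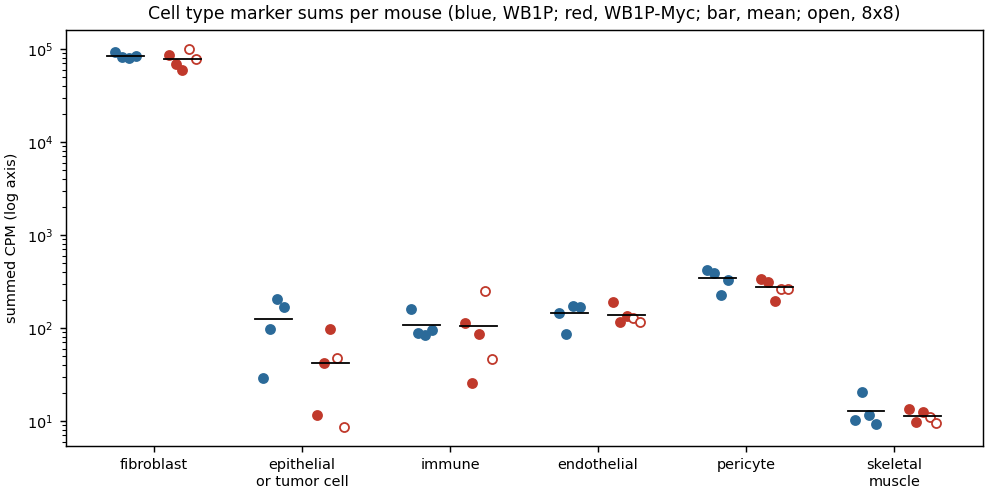
Summed CPM (log axis) of the marker genes of 6 cell types in each mouse, with WB1P in blue, WB1P-Myc in red, open circles for the mice marked 8x8 and a bar at each mean. Fibroblast markers lie between 59447 and 99411 CPM and every other sum at or below 424 CPM, and the epithelial sum has the higher median in WB1P (134 against 42.0 CPM).

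Depth was 5790599 to 15155454 counts per library (median 12679434) and 5790599 to 28310142 per mouse, and mean counts per mouse were 21865410 in WB1P and 19396020 in WB1P-Myc (2-sided exact permutation test over 126 relabellings, p = 0.698). The 10 most abundant genes took up 9.72% to 14.6% of the counts, and mitochondrial genes 0.432% to 0.797%. No library repeated another: the chi-square statistic per degree of freedom was 4.12 to 93 over the 49 pairs of libraries of the same model.

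No gene passed the test between the tumor models. Of 14120 genes tested, 0 were higher and 0 were lower in WB1P-Myc CAFs at a false discovery rate (FDR, Benjamini-Hochberg) under 0.05 in edgeR's quasi-likelihood test, which is 0% of genes in each direction, and 0% also passed the second rule of an absolute log2 fold change over 2. The smallest FDR was 0.9998, and every gene tested with the 9 mice shared it. At an unadjusted p under 0.05 there were 350 genes (2.48%), of which 151 (1.07%) were higher and 199 (1.41%) lower in WB1P-Myc. For 78 genes (0.552%) the mice of the models did not overlap, 44 (0.312%) with all WB1P-Myc mice higher and 34 (0.241%) with all of them lower. Genes that do not differ would on average give a share of 0.05 at such a p. For mice without overlap that share would be 0.0159. Both shares found lie below these, so that a lack of overlap in a single gene sets it apart little. The 95% interval of a log2 fold change reached 0.51 to either side of it in the median gene (quartiles 0.37 and 0.78), which corresponds to 1.43-fold. The unadjusted p-values below rank genes without calling any.

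DESeq2's Wald test on the same sums called 1 gene higher and 5 lower at an FDR under 0.05 and had 576 genes at an unadjusted p under 0.05. The 6 are the pseudogene Rps3a3, which was higher, and Rap1gap, Celsr2, Hbb-bs, Meltf and Plekhb1, which were lower. They are named because the test called them, and the filter of edgeR left Hbb-bs and Meltf untested. Hbb-bs is a hemoglobin gene, and the erythroid marker sums were 0.412 to 3.76 CPM in WB1P and 0 to 0.172 CPM in WB1P-Myc mice. Rap1gap, which encodes an activator of the GTPase activity of RAP1, had the smallest p in edgeR as well. It had 2.65, 2.57, 2.54 and 2.47 CPM in WB1P and 0.613, 0.595, 0.922, 1.08 and 1.06 CPM in WB1P-Myc mice, a low gene in every mouse with no overlap (log2 fold change -1.57, SE 0.28, and -1.85 without the mice marked 8x8). Celsr2, an adhesion receptor of the cadherin family, had 2.57 to 5.20 CPM in WB1P and 0.254 to 1.29 CPM in WB1P-Myc mice (log2 fold change -2.32, SE 0.48). Without WB1P mouse 93, edgeR called 1 gene, the carbonic anhydrase gene Car2, lower in WB1P-Myc with a log2 fold change of -3.04 (FDR = 0.0374).

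The distance between mice of different models exceeded that within a model by less than the test could resolve. Over the 500 most variable genes, the mean Euclidean distance between log2 CPM profiles was 49.9 between models and 47.9 within a model, a difference of 1.99 (2-sided exact permutation test over 126 relabellings, p = 0.262), and the nearest mouse was of the same model for 5 of 9 mice. The mouse itself was the larger source of distance. The CD26+ and double+ libraries of a mouse lay 14.0 to 16.5 apart (median 15.3, 6 pairs), libraries of different mice of the same model 30.1 to 53.4 (median 43.6, 43 pairs) and libraries of different models 34.6 to 54.2 (median 44.6, 56 pairs). For 12 of 12 libraries from mice with both sorts, the nearest library was the other sort of the same mouse.

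Cholesterol synthesis genes had the highest median among the 25 gene lists, which were chosen with earlier results of these data known. Cells make sterols from acetyl-CoA through the mevalonate pathway, and the genes of this route are transcribed together under SREBP2 (encoded by Srebf2) when sterols run low. Of 22 members tested, 0 passed the FDR in either direction, 9 were higher in WB1P-Myc CAFs at an unadjusted p under 0.05 and 0 lower, against 1.07% and 1.41% of all genes. Their median log2 fold change was 0.60 (20 of 22 positive), beside -0.01 over all genes tested (47.9% positive). Without the mice marked 8x8, 11 members were higher at an unadjusted p under 0.05 with a median of 0.76, where 97 of 14303 genes (0.678%) were higher and 157 (1.1%) lower.

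Cyp51 (ENSMUSG00000001467, chromosome 5, 4081145 to 4104746), which encodes lanosterol 14-demethylase, had the smallest p of the list. It had 43.7, 35.8, 53.5 and 38.9 CPM in WB1P mice 93, 12, 14 and 35 and 67.4, 88.7, 73.1, 56.7 and 63.5 CPM in WB1P-Myc mice 21, 67, 95, 23 and 69. Every WB1P-Myc mouse lay above every WB1P mouse, with a log2 fold change of 0.70 (SE 0.17, 95% interval 0.33 to 1.07), and of 0.82 without the mice marked 8x8. Sqle, which encodes squalene epoxidase, had 24.2, 14.0, 24.4 and 18.3 CPM against 25.3, 49.5, 35.5, 27.4 and 28.5 CPM, again without overlap (log2 fold change 0.71, SE 0.24). Mouse 67 was the highest mouse for both genes.

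Of the other 7 members with an unadjusted p under 0.05, 6 were chosen for mention after their values were seen, and their mice overlapped between models. They span the route from its entry to sterol transport: the synthase gene Hmgcs1 (log2 fold change 0.59), the squalene synthase gene Fdft1 (0.84), the sterol-modifying enzyme genes Msmo1 (0.72) and Sc5d (0.54), Insig1, whose product holds back SREBP processing (0.46) and Stard4, which encodes a sterol carrier (0.94). Fdft1 had 7.17, 9.75, 12.2 and 12.0 CPM in WB1P and 12.0, 31.5, 17.2, 16.3 and 15.6 CPM in WB1P-Myc mice. Mouse 67 stood apart from the other WB1P-Myc mice in Fdft1. Srebf2 had a log2 fold change of 0.17 (SE 0.18).

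The cholesterol values depended on which libraries and mice were compared. In the double+ libraries alone, which all 9 mice have, 13 members were higher at an unadjusted p under 0.05. The median log2 fold change of the list was 0.64, and 318 of all genes had such a p in either direction. In the CD26+ libraries alone, which leave out mice 12, 67 and 95, 1 member was higher at that threshold and the median was 0.13. Of all genes, 278 had such a p there. The mice with the double+ sort alone were WB1P mouse 12, which had the lowest list level, and WB1P-Myc mice 67 and 95, which had the highest. Over the 6 mice with both sorts, a comparison added after these values were seen, 1 member had an unadjusted p under 0.05 and the median was 0.21. Of all genes, 305 had such a p in these mice. The sort and the mice left out cannot be told apart in the CD26+ values. Cyp51 kept a log2 fold change of 0.46 and Sqle one of 0.28 in these 6 mice, where Srebf2 (-0.13) turned sign. Leaving out mouse 12 left 4 members at an unadjusted p under 0.05, beside 489 of all genes, and leaving out mouse 67 left a median of 0.36. Mouse 12 also had the fewest counts (5790599), and the part of depth was not tested.

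**Figure D2:**
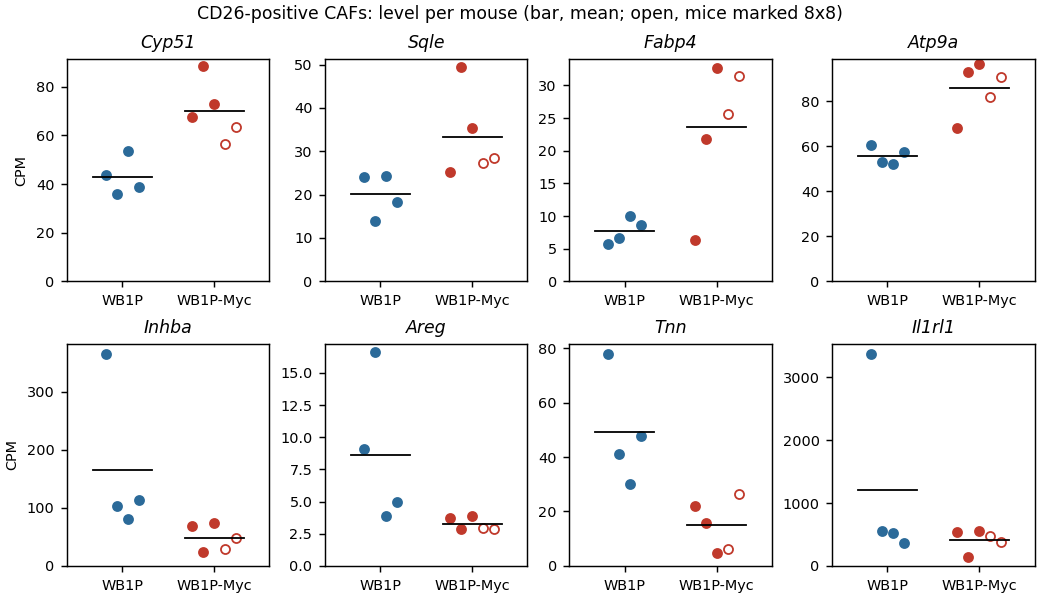
CPM of 8 genes in each mouse (WB1P in blue, WB1P-Myc in red, open circles for the mice marked 8x8, bar at the mean). Cyp51, Sqle and Atp9a are higher and Inhba, Areg and Tnn lower in every WB1P-Myc mouse than in every WB1P mouse, whereas Fabp4 overlaps through mouse 21 and the Il1rl1 mean of WB1P rests on mouse 93 (3374 CPM).

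The cholesterol genes were also compared with the CD26-negative CAFs of the same 9 mice (16 libraries), to ask whether the tumor model difference depended on the CD26 class. WB1P-Myc mice 21 and 95 contributed only CD26-negative cells outside the En1 lineage, and the other mice also those of the En1 lineage. The part of this missing sort in the CD26-negative values and in the class differences was not tested. In CD26-negative CAFs the median log2 fold change of the list was 0.14. In the test of the difference between the classes, with the mouse as a block over 18 sums, 0 of 15433 genes passed an FDR under 0.05 in either direction (0%, smallest FDR 0.4011). At an unadjusted p under 0.05 there were 1123 genes (7.28%), 512 (3.32%) with the higher difference in CD26-positive CAFs and 611 (3.96%) with the lower. Among the 22 cholesterol genes, 8 had an unadjusted p under 0.05, all with the higher difference in CD26-positive CAFs, among them Cyp51, Sqle, Fdft1, Msmo1, Sc5d and Stard4. Stard4 had 9.59, 5.82, 16.3 and 13.8 CPM in CD26-positive CAFs of WB1P and 16.2, 30.3, 15.7, 30.5 and 18.4 CPM in those of WB1P-Myc mice. In CD26-negative CAFs it had 33.5, 26.3, 29.5 and 41.6 against 22.7, 43.2, 19.97, 45.2 and 22.5 CPM, with mice that overlapped between models (log2 difference between the classes 1.11, SE 0.22). Cyp51 ranged from 103 to 131 CPM in CD26-negative CAFs of WB1P and from 77.4 to 153 CPM in those of WB1P-Myc mice, above its level in CD26-positive CAFs of each mouse.

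**Figure D3:**
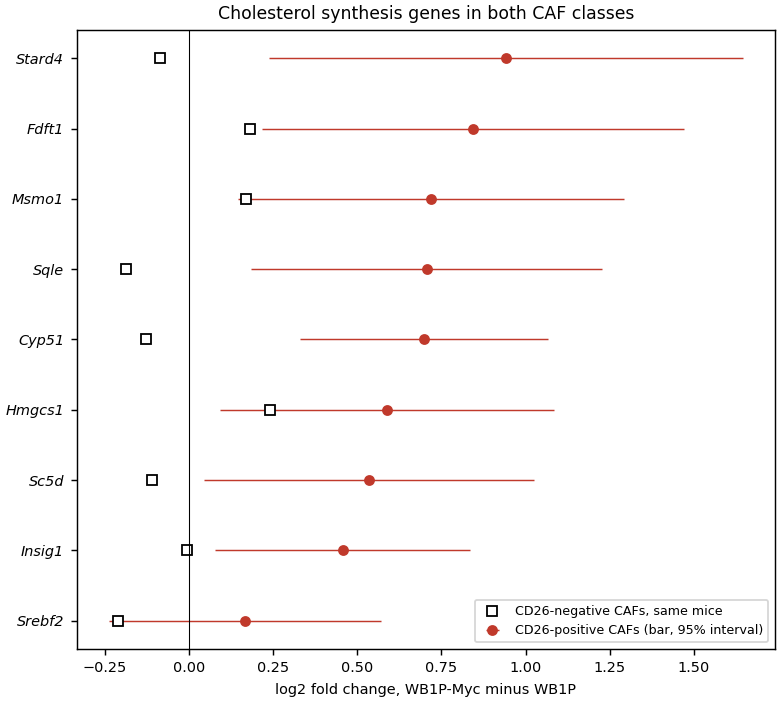
Log2 fold change (WB1P-Myc minus WB1P) of 9 of the 22 cholesterol synthesis genes in CD26-positive CAFs (red, bar for the 95% interval) and in CD26-negative CAFs of the same mice (open squares). The 9 are the members named in the text, 8 of them with an unadjusted p under 0.05 in CD26-positive CAFs. The median over all 22 is 0.60 in CD26-positive and 0.14 in CD26-negative CAFs, and the squares of Stard4, Sqle, Cyp51 and Sc5d are among those below 0.

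Of 23 genes of lipid handling and adipocyte differentiation, 5 were higher and 0 lower at an unadjusted p under 0.05, against 1.07% and 1.41% of all genes, with a median log2 fold change of 0.12 (16 positive). Pparg encodes the nuclear receptor that directs adipocyte differentiation. It had 1.86, 2.22, 1.03 and 2.91 CPM in WB1P and 1.93, 11.0, 6.60, 4.52 and 8.86 CPM in WB1P-Myc mice (log2 fold change 1.72, SE 0.49). Fabp4, a fatty acid carrier and a target of PPARG, had 5.68, 6.67, 10.1 and 8.58 against 6.26, 21.9, 32.7, 25.6 and 31.5 CPM (log2 fold change 1.59, SE 0.41). In both genes 4 of 5 WB1P-Myc mice lay above all WB1P mice, and mouse 21 lay among them. The lipid droplet gene Plin4 (2.58), the fatty acid transporter gene Cd36 (2.41) and the lipoprotein lipase gene Lpl (0.71) were the other 3, named after their values were seen. Plin4 had 0.240 to 0.654 CPM in WB1P and 0.438, 7.80, 1.77, 0.731 and 4.03 CPM in WB1P-Myc mice. Cd36 had 0.171 to 3.92 against 1.66, 16.3, 2.48, 0.860 and 27.0 CPM. Both overlapped between models and were highest in mice 67 and 69. Without the mice marked 8x8 the log2 fold changes were 1.70 for Pparg, 1.37 for Fabp4 and 2.75 for Plin4, and 3 members had an unadjusted p under 0.05, the same count as without mouse 93 or without mouse 12. Over all genes 0.678% were higher at that threshold without the marked mice. In the 6 mice with both sorts 1 member had an unadjusted p under 0.05, beside 305 of all genes in either direction. In the CD26+ libraries alone 0 did, and the median was -0.01. Adipocyte markers were at or below 2.38 CPM in sum, with 1 of 7 at 0 in every mouse, and the highest sums (2.38 and 1.95 CPM) were in mice 67 and 69. In CD26-negative CAFs the log2 fold change was 1.84 for Pparg and 0.80 for Fabp4.

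In the list of TGF-beta and BMP genes, Inhba had the smallest p. Inhba (ENSMUSG00000041324, chromosome 13, 16011851 to 16031621) encodes the subunit of activin A, a TGF-beta family ligand. It had 366, 103, 80.2 and 114 CPM in WB1P and 68.6, 23.5, 73.3, 29.1 and 47.4 CPM in WB1P-Myc mice. The models did not overlap (log2 fold change -1.78, SE 0.48, and -1.59 without the mice marked 8x8), and mouse 93 stood far above the rest. Without mouse 93 the log2 fold change of Inhba was -1.04. Of 32 TGF-beta and BMP signalling genes 1 (Inhba) had an unadjusted p under 0.05, against 2.48% of all genes, and the list had a median of -0.08. Tgfb2 had 231 CPM in mouse 93 and 21.7 to 82.8 CPM in the other mice.

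Among 41 growth and angiogenic factors, 3 were lower at an unadjusted p under 0.05, against 1.41% of all genes. They were the EGF receptor ligand genes Areg, Ereg and Hbegf. The list had a median log2 fold change of -0.01 (20 positive). Areg, which encodes amphiregulin, had 9.08, 16.6, 3.92 and 4.98 CPM in WB1P and 3.72, 2.91, 3.90, 2.97 and 2.88 CPM in WB1P-Myc mice (log2 fold change -1.36, SE 0.38), without overlap although the values nearly met. Ereg, which encodes epiregulin, had 96.6, 43.6, 95.7 and 133 against 54.5, 15.3, 37.2, 68.8 and 17.7 CPM (log2 fold change -1.26, SE 0.45). Hbegf, named after its values were seen, had a log2 fold change of -0.91 (SE 0.40). The fibroblast growth factor gene Fgf1, named in the same way, was the 1 higher member at that threshold, against 1.07% of all genes. It had 0.513 to 1.96 CPM in WB1P and 11.6, 11.5, 1.49, 3.66 and 0.678 CPM in WB1P-Myc mice.

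Of 31 cytokine and acute-phase genes, 5 were lower at an unadjusted p under 0.05 and 0 higher, against 1.41% and 1.07% of all genes, with a median log2 fold change of -0.26 (5 positive). The 5 lower with all mice included the iron-binding acute-phase gene Lcn2 (-1.52) and the interleukin genes Il11 (-1.27) and Lif (-0.94). The others were the IL-1 receptor antagonist gene Il1rn (-1.07) and the IL-33 receptor gene Il1rl1 (-1.53). Without the mice marked 8x8, Lcn2 and Nos2 were the 2 lower members and 1 was higher, so that of the 5 Lcn2 alone remained. Il1rl1 had 3374, 559, 522 and 360 CPM in WB1P and 544, 139, 552, 473 and 377 CPM in WB1P-Myc mice, so that 3 WB1P mice lay within or near the range of the WB1P-Myc mice. Without mouse 93, 1 of the 31 members had an unadjusted p under 0.05, the median of the list was -0.11 and the log2 fold change of Il1rl1 was -0.20. The same count was 1 without mouse 67 or mouse 69, 3 without mouse 35 or mouse 23, and 11 without mouse 95. Nos2, the inducible nitric oxide synthase gene, went with no model as a whole. It had 33.2, 33.0, 9.65 and 23.6 CPM in WB1P, 2.10, 3.17, 1.13 and 3.22 CPM in WB1P-Myc mice 21, 67, 95 and 69, and 221 CPM in mouse 23, which is marked 8x8. Its log2 fold change was 0.91 (SE 1.39) over all mice and -3.52 without the mice marked 8x8. Among 17 chemokine genes, with a median of -0.02, 1 was higher and 1 lower at an unadjusted p under 0.05, against 1.07% and 1.41% of all genes. The higher was Ccl5, at 49.6 CPM in mouse 69 and at most 3.12 CPM in all others. The lower was the neutrophil attractant gene Cxcl2, with a log2 fold change of -1.33. It had 1040, 520, 160 and 151 CPM in WB1P and 199, 90.1, 295, 193 and 153 CPM in WB1P-Myc mice. WB1P mice 14 and 35 thus lay within the range of the WB1P-Myc mice.

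Few matrix genes stood out between the models. All 11 fibrillar collagen genes had negative log2 fold changes with 0 at an unadjusted p under 0.05, and the median was -0.18 (-0.38 without the mice marked 8x8, 0.02 in the 6 mice with both sorts). Col1a1 had 20490 ± 357 CPM (SD, n = 4 mice) in WB1P and 18719 ± 5107 CPM (n = 5) in WB1P-Myc CAFs, with the wider spread in WB1P-Myc. Tnn, which encodes the matrix glycoprotein tenascin-W, had 77.9, 41.2, 30.2 and 47.7 CPM in WB1P and 21.9, 15.8, 4.61, 6.11 and 26.4 CPM in WB1P-Myc mice, without overlap (log2 fold change -1.72, SE 0.48, and -1.80 without the mice marked 8x8). In CD26-negative CAFs Tnn was more abundant, at 872, 255, 614 and 555 against 61.6, 136, 17.6, 6.09 and 88.3 CPM (log2 fold change -3.21). Its relative Tnc, tenascin-C, had a log2 fold change of -0.59 (SE 0.23). Acan (-3.65), the cartilage proteoglycan gene, and Thbs4 (-1.01), a thrombospondin gene named after its value was seen, were lower too. Acan had 2.19, 7.36, 0.481 and 32.1 CPM in WB1P and 0 to 2.08 CPM in WB1P-Myc mice. It was thus low in most mice, overlapped between models and was highest in mouse 35. With Tnn and Tnc, 4 of 49 matrix glycoproteins and proteoglycans were lower at an unadjusted p under 0.05, against 1.41% of all genes. Of the 49, 5 were positive and the median was -0.16. Without mouse 93 the count was 2 and the median -0.05, and the count was 2 in the fit of all groups. Of 33 other collagen and basement membrane genes, with a median of -0.06 (11 positive), 4 were higher at an unadjusted p under 0.05 and 0 lower. They were Col10a1, Col4a2, Col15a1 and Col18a1, and the shares of all genes were 1.07% and 1.41%. The count was 1 without the mice marked 8x8 and without each of mice 93, 35, 23 and 69, 2 without mouse 12, and 0 in the CD26+ libraries alone and in the fit of all groups. Col18a1 had 145 to 219 CPM in WB1P and 220 to 315 CPM in WB1P-Myc mice, and its log2 fold change was 0.40 with all mice and 0.20 without those marked 8x8.

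Of 46 matrix proteases, inhibitors and crosslinkers 1 was higher at an unadjusted p under 0.05, against 1.07% of all genes. It was the stromal protease gene Mmp11 (log2 fold change 0.51), and the median of the list was -0.12. Of 14 contractile genes 1 was lower at that threshold, against 1.41% of all genes. It was the smooth muscle actin gene Actg2 (-1.21), and the median of the list was -0.12. Laminin subunit genes Lama3 and Lamb3, of the epithelial basement membrane, had log2 fold changes of -4.05 and -1.54. Lama3 had 35.6 CPM in WB1P mouse 35 and 0.198 to 2.23 CPM in the other 8 mice. Mouse 35 also had the second-highest epithelial marker sum (170 CPM) and 15.3 CPM of Krt14, a basal keratin gene, whose level was at most 4.40 CPM elsewhere. Of 15 epithelial markers tested, 2 (Epcam and Krt7) were lower at an unadjusted p under 0.05, against 1.41% of all genes. Of the 15, 14 had negative log2 fold changes, and the median was -1.91. The part of these epithelial transcripts in the values of Lama3, Lamb3, Lcn2, Areg, Ereg and Acan was not tested.

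The lists that describe CAF types, drawn up here and not the study's own signatures, gave small medians in CD26-positive CAFs. At an unadjusted p under 0.05, 1 of 25 iCAF genes was lower (Cxcl2) and 0 higher, with a median log2 fold change of -0.17. At the same threshold 2 of 26 myCAF genes were higher (Mmp11 and Col15a1) and 1 lower (Tnc), with a median of -0.06. Over all genes 1.07% were higher and 1.41% lower. Of 24 genes of CD26-positive adventitial fibroblasts 0 had an unadjusted p under 0.05, with a median of -0.08, and among them Sbsn had -0.45 and Dact2 0.92. In CD26-negative CAFs of the same mice, where mice 21 and 95 lack the En1-lineage sort, the median was 0.62 for the iCAF and -0.56 for the myCAF list. In the test of the difference between the classes, 9 of 26 myCAF genes had the higher and 1 the lower difference in CD26-positive CAFs at an unadjusted p under 0.05, against 3.32% and 3.96% of all genes. Of 25 iCAF genes 0 had the higher and 5 the lower. The myCAF gene Lrrc15, for example, had a log2 fold change of -0.07 in CD26-positive and -1.27 in CD26-negative CAFs. Il6, an iCAF cytokine gene, had -0.13 and 0.46. Both were named after their values were seen, as was S100a4, the 1 member of the myCAF list with the lower difference.

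The genes with the smallest p in the test between the classes are listed here by rule, none with an FDR under 0.05. Htr2a, a serotonin receptor gene, had 95.4, 37.5, 37.3 and 58.0 against 61.1, 70.6, 36.6, 68.6 and 36.3 CPM in CD26-positive CAFs of the WB1P and WB1P-Myc mice. In CD26-negative CAFs it had 34.8, 20.3, 31.9 and 53.2 against 4.07, 9.79, 6.54, 9.04 and 7.76 CPM, without overlap (log2 difference between the classes 2.18, SE 0.35). The class difference of Htr2a did not pass the test (FDR = 0.4011, edgeR). The BMP antagonist gene Grem1 (1.90), the mesenchymal transcription factor gene Twist2 (1.28), Lrrc55 (1.65) and Stard4 (1.11) had the other higher differences. The lower ones were those of the metalloprotease gene Pappa2 (-1.82), the vitronectin gene Vtn (-1.85), the BMP ligand gene Bmp2 (-1.37), Card10 (-1.07) and Trabd2b (-0.62). Vtn had 11.5 to 21.0 against 5.42 to 14.7 CPM in CD26-positive and 13.3 to 31.0 against 13.3 to 90.3 CPM in CD26-negative CAFs.

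Interferon-stimulated genes followed single mice. Interferons induce antiviral genes such as Ifit2, Mx1 and Rsad2. Of 40 members 38 had positive log2 fold changes with a median of 0.59. At an unadjusted p under 0.05, however, 1 was higher and 0 lower, against 1.07% and 1.41% of all genes. Without the mice marked 8x8 the median was -0.16. Ifit2, the 1 member, had 10.8, 5.47, 9.14 and 11.0 CPM in WB1P and 8.98, 11.4, 14.1, 15.4 and 80.2 CPM in WB1P-Myc mice. Mx1 had 1.51 to 2.39 CPM in WB1P and 0.263, 0.198, 6.03, 2.32 and 47.2 CPM in WB1P-Myc mice, so that WB1P-Myc held the lowest and the highest mice. Without mouse 69 alone the median of the list was -0.15. Of 18 antigen presentation genes 0 had an unadjusted p under 0.05, with a median of 0.19, and the immunoproteasome genes Psmb8 (98.96 CPM) and Psmb9 (30.6 CPM) were highest in mouse 69.

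**Figure D4:**
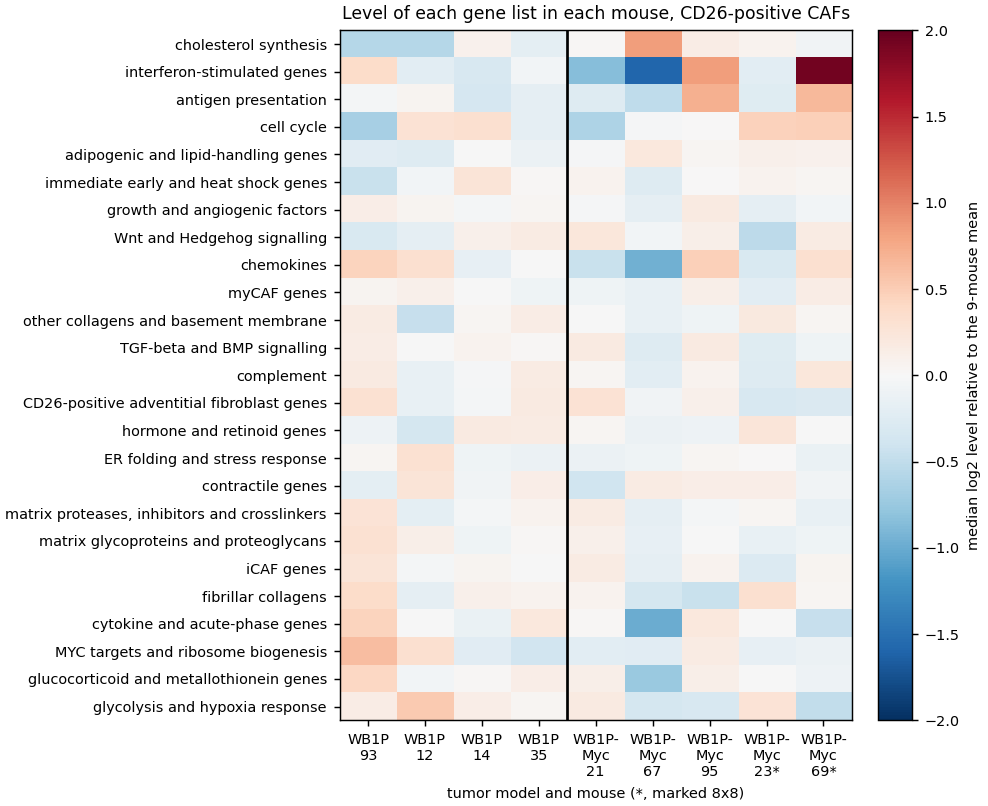
Level of each of the 25 gene lists in each mouse, as the median over members of log2 CPM relative to the mean of the 9 mice (red above, blue below), with mice marked 8x8 starred and a line between the models. Interferon-stimulated genes reach 1.94 in mouse 69 and -1.58 in mouse 67, and cholesterol synthesis 0.83 in mouse 67.

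Lists of growth and metabolism differed in sign. Glycolysis and hypoxia genes had the lowest median of the lists, -0.36 (6 of 35 positive, -0.46 without the mice marked 8x8). At an unadjusted p under 0.05, 2 were lower, against 1.41% of all genes. They were the glucose transporter gene Slc2a3 (-0.59) and the stress-induced gene Ddit4 (-0.49). In the 6 mice with both sorts the median was -0.06. Of 30 MYC targets and ribosome biogenesis genes 4 were positive and 0 had an unadjusted p under 0.05, with a median of -0.26, and without mouse 93 it was -0.01. The nucleolar gene Nop56 had 178, 95.5, 53.8 and 45.1 CPM in WB1P and 51.1 to 84.0 CPM in WB1P-Myc mice. Of 39 cell cycle genes 33 were positive, 0 had an unadjusted p under 0.05, and the median was 0.15 with all mice and -0.23 without those marked 8x8. Of 12 glucocorticoid and metallothionein genes 0 had an unadjusted p under 0.05 and the median was -0.33, and mouse 67 had the lowest level.

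The remaining lists held few or no members with an unadjusted p under 0.05. Complement genes (21), genes of ER folding and the stress response (26), immediate early and heat shock genes (28) and hormone and retinoid genes (20) had 0, with medians of -0.08, -0.12, 0.10 and -0.12. Of 32 Wnt and Hedgehog genes 1 was higher at that threshold, against 1.07% of all genes. It was the Wnt target gene Axin2 (log2 fold change 0.78, SE 0.32), and the median of the list was -0.02.

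**Figure D5:**
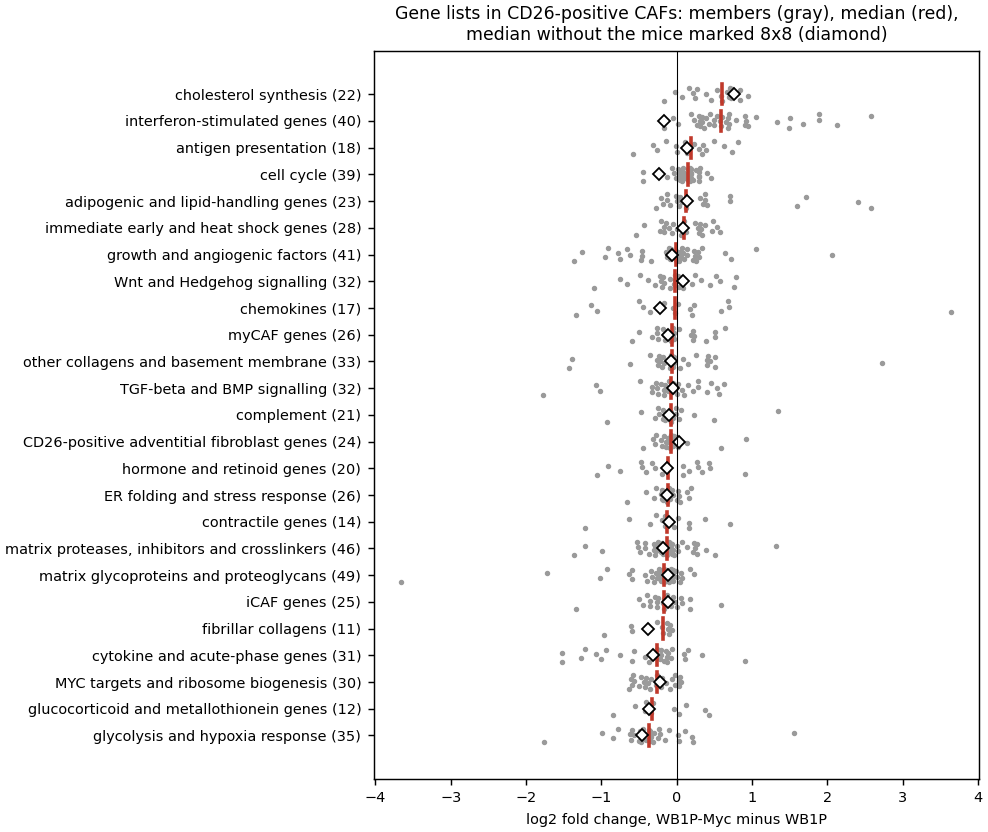
Log2 fold change (WB1P-Myc minus WB1P) of each member of the 25 gene lists (gray), with the median of each list (red) and its median without the mice marked 8x8 (diamond). Cholesterol synthesis (0.60) and interferon-stimulated genes (0.59) have the highest medians, and the interferon diamond lies at -0.16.

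By the naming rule, the 12 genes with the smallest p in each direction whose higher group averaged 5 CPM or more were also described, since none passed the FDR. Atp9a (ENSMUSG00000027546, chromosome 2, 168634438 to 168742409), a phospholipid flippase gene, had 60.4, 53.2, 52.1 and 57.2 CPM in WB1P and 68.1, 92.8, 96.5, 82.1 and 90.7 CPM in WB1P-Myc mice, without overlap (log2 fold change 0.63, SE 0.13). Its log2 fold change was 0.62 without the mice marked 8x8 and 0.74 in CD26-negative CAFs. Cdc42ep2, whose product binds the GTPase CDC42, had 14.1 to 17.6 against 17.7 to 29.7 CPM (0.61), and Zfyve28 had 5.67 to 9.92 against 10.8 to 14.9 CPM (0.62), both without overlap. With Cyp51, these were the 4 of 12 higher genes without overlap, against 0.312% of all genes. The choice by smallest p in the same mice favours genes without overlap, so that this count is no separate result. The neuropeptide receptor gene Adcyap1r1 (1.55), the redox regulator gene Txnip (1.42), the cytokine receptor gene Il27ra (0.72) and the corepressor gene Tle6 (0.76) overlapped, as did Fabp4 and Pparg.

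On the lower side, chosen in the same way, Inhba, Areg and Tnn were the 3 of 12 genes without overlap, against 0.241% of all genes. Nlrp3, which encodes an inflammasome sensor, had 25.3, 3.93, 14.7 and 4.83 CPM in WB1P and 0.991 to 4.00 CPM in WB1P-Myc mice (log2 fold change -2.08, SE 0.55), with a small overlap. Cyp2f2, a cytochrome P450 gene (-1.53), the Nogo receptor homolog gene Rtn4rl2 (-1.32) and Wfikkn2 (-1.38), whose product binds myostatin, overlapped as well. The other genes of the rule were Rps3a3 and Gm8797 on the higher and Gm9625, Gm8730 and Gm14165 on the lower side, which were high in some mice and low in the rest. All but Gm8797, annotated as protein-coding, are processed pseudogenes, which can share reads with near-identical copies, and their counts are uncertain for that reason. Lama3 and Lamb3 complete the lower 12.

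Without the mice marked 8x8, edgeR called 0 of 14303 genes in either direction. Of 98 named genes tested in that fit, 93 kept the direction of their log2 fold change and 5 turned it (Rsad2, Nos2, Dpp4, Pdgfra and Cxcl12). Of the lists, those of cholesterol synthesis, cytokines, glycolysis and fibrillar collagens kept the sign of their medians, while those of interferon-stimulated genes, cell cycle genes, Wnt and Hedgehog genes (0.08) and adventitial fibroblast genes (0.02) turned it. Both mice with the mark were WB1P-Myc mice, and a part of tumor size in the comparison of all 9 mice was not tested.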

How the data were processed

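Stranded mRNA libraries (TruSeq) of sorted fibroblasts were sequenced on Illumina instruments. The authors deposited raw read counts per gene without normalization, and HISAT2 2.2.1 and the genome build GRCm38 are named in the submitters' processing notes. The counter, the annotation and its strand setting are not given in the sources used here, and neither are batches or sort days. The count table held 55486 genes and 1 line with no gene name and 0 counts, which was left out. Authors' comparisons were not used. Some genes are not reported here by name.

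Counts were summed per mouse over the CD26+ and +/+ libraries, filtered with filterByExpr, normalized by TMM and tested with glmQLFit and glmQLFTest in edgeR 4.0.16 (R 4.3.3), with Benjamini-Hochberg FDR over all genes tested. DESeq2 1.42.0 and limma 3.58.1 served for alternatives. CPM used TMM-scaled library sizes. Mice are separate animals and are the replicates. The 2 CD26 classes of a mouse are paired by their mouse number, and their deviations from group means correlated with r of 0.291 to 0.575 across genes. Distances used log2 CPM with a prior count of 2. The script was tested on simulated counts. Members, lists and naming rules were chosen with earlier results of these data known. Named are the 12 genes per direction by the rule in the text, 2 members per list by smallest p, check genes, cell type markers and 5 genes per direction between the CD26 classes. Alternatives were other size factors, DESeq2, no filter, single sorts, all groups in 1 fit, libraries as units with the mouse as block, other gene numbers and each mouse left out.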

Additional observations from a re-analysis of the deposited data

Results flagged for a closer look

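Of 198 groups of mice tested for the named genes and 64 for the lists, 24 and 5 held a mouse whose gap to the nearest other mouse exceeded Dixon's 95% critical value. Chance flags about 1 in 20 groups where values are normally distributed, which CPM need not be. Genes of a list are not independent, and the genes were named from these same data, so that the counts of flags have no fixed chance level. Highest and lowest below refer to the mice of the same model.

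WB1P-Myc mouse 69, marked 8x8, was highest for the interferon-stimulated genes Rsad2 (117 CPM), Ifit3 (86.5 CPM), Ifit2 (80.2 CPM) and Mx1 (47.2 CPM) and for Ccl5 (49.6 CPM), and lowest for Il27ra (5.81 CPM). WB1P-Myc mouse 67 was highest for Fdft1 (31.5 CPM) and Dact2 (43.7 CPM). Its list level, a median log2 CPM relative to the 9 mice, was highest for cholesterol synthesis (0.83, next mouse 0.15) and lowest for immediate early and heat shock genes (-0.25) and for glucocorticoid and metallothionein genes (-0.74). WB1P-Myc mouse 23, marked 8x8, was highest for Nos2 (221 CPM) and Rtn4rl2 (8.17 CPM) and lowest for Tle6 (4.39 CPM). WB1P-Myc mouse 95 was highest for Nop56 (84.0 CPM), Krt8 (18.3 CPM) and the list of MYC targets and ribosome biogenesis (0.16).

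WB1P mouse 93 was highest for Il1rl1 (3374 CPM), Inhba (366 CPM), Tgfb2 (231 CPM), En1 (62.8 CPM) and Rsad2 (14.9 CPM). WB1P mouse 35 was highest for Lama3 (35.6 CPM), Lamb3 (24.4 CPM) and Actg2 (5.38 CPM). WB1P mouse 14 was lowest for Col18a1 (145 CPM) and Zfyve28 (5.67 CPM). WB1P mouse 12 was lowest for Col11a1 (49.4 CPM) and highest for the skeletal muscle list (0.66).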

How the results depend on the processing

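With 4 and 5 mice, the unadjusted 95% interval of the median gene reached 1.43-fold to either side. The count of 0 genes at an FDR under 0.05 held with DESeq2's size factors, without the filter on low counts, without the mice marked 8x8, in single sorts, in a fit of all groups (25 sums) and with the 15 libraries as units and the mouse as replicate block (limma voom, 315 genes at an unadjusted p under 0.05). DESeq2's Wald test called 1 gene higher and 5 lower, of which 5 had an absolute log2 fold change over 2. Leaving out single mice gave 0 to 1 genes lower, and 0 to 1 with an absolute log2 fold change over 2. The count at an unadjusted p under 0.05 was 979 without the filter, 646 with all groups and 258 to 538 without single mice. It was 318 in the double+ and 278 in the CD26+ libraries alone. In the 6 mice with both sorts it was 305, and without the mice marked 8x8 it was 254. In the test between the CD26 classes, 23 genes were called without the filter, 1 (Megf11) without the mice marked 8x8 and 0 to 4 without single mice (2 without mouse 67 and 4 without mouse 23). Without the replicate block 0 were called and 499 genes had an unadjusted p under 0.05. The difference in distance was 0.772 to 4.07 without single mice and stayed on the same side of the threshold in every alternative run. The cause of these moves was not tested.

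Reversed without the mice marked 8x8 were the medians of the interferon (-0.16), cell cycle (-0.23), Wnt and Hedgehog (0.08) and adventitial fibroblast (0.02) lists, Rsad2 (-0.27), Nos2 (-3.52), Dpp4 (0.0618), Pdgfra (-0.0623) and Cxcl12 (-0.0585). In the CD26+ libraries alone the adipogenic median (-0.00897), Srebf2 (-0.23), Col1a1 (0.0660), Col3a1 (0.0643), Dact2 (-0.0638) and Cxcl12 (-0.0853) reversed. In the 6 mice with both sorts, chosen after seeing the data, the fibrillar collagen median (0.0193), Srebf2 (-0.13), Col1a1 (0.0835) and Col3a1 (0.0732) did. With the replicate block Nos2 did (-1.96). Without single mice, values ranged from -0.23 to 0.10 for Dpp4, -0.00013 to 0.44 for Pdgfra, -3.36 to 1.22 for Nos2, -0.35 to 2.47 for Rsad2 and -0.15 to 0.80 for the interferon median.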

Other observations

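Among 10910 genes with at least 5 CPM in a mouse, 4 divided the 9 mice into a high and a low set separated by a gap of at least 3 on the log2 scale, with at least 2 mice on each side. Of these 4 genes 3 are annotated as processed pseudogenes, beside 64 of the 10910 genes. Rps3a3 (chromosome 13, 108670603 to 108671397, GRCm38), a processed pseudogene of a ribosomal protein gene, had 66.8 to 81.9 CPM in WB1P-Myc mice 67, 95 and 69 and 0.513 to 0.687 CPM in the other 6 mice. In CD26-negative CAFs the same 3 mice had 55.2 to 69.3 CPM and the others 0.232 to 0.651 CPM. Gm8797 had 21.2 to 21.6 CPM in WB1P-Myc mice 21 and 67 and 0.309 to 0.932 CPM elsewhere. Gm9625 had 43.9 to 59.3 CPM in WB1P mice 93 and 35 and 2.15 to 3.19 CPM elsewhere. Gm8420 had 4.70 to 7.09 CPM in mice 93, 21, 67, 95 and 69 and 0 to 0.129 CPM in the other 4. For all 4 genes the high mice were the same in the CD26-negative CAFs. Gm8730 and Gm14165, which are among the lower genes by rule, were likewise highest in mice 93 and 35.

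In CD26-negative CAFs of the same mice the lists of glycolysis and hypoxia genes (-0.60) and fibrillar collagens (-0.48) also had negative median log2 fold changes, and the cell cycle list had a positive one (0.52). Inhba had 1598, 950, 853 and 1090 CPM in these cells of the WB1P mice and 137 to 608 CPM in those of the WB1P-Myc mice (log2 fold change -1.86).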
